A study of Mus musculus with 52 samples.

Results

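The genes described here are 41 genes of mitosis and chromosome segregation, a fixed list of symbols looked up among the 28786 Ensembl gene identifiers of a count table, and all 41 were found. They fall into 8 roles: cyclins with Cdk1, chromosome surface and topology, condensin, centromere and kinetochore, spindle checkpoint, chromosomal passenger complex, spindle and motors, and mitotic exit with cytokinesis. The table holds 52 mouse bone marrow cells profiled one per library by Smart-seq2, a full-length RNA sequencing protocol without molecular identifiers. Every cell was labelled a primed HSC (haematopoietic stem cell), so the study has 1 labelled group, no control and no replicate. All came from C57BL/6 animals, 6 to 8 weeks old, of genotype Cd4-cre;R26Tdtomato, in which Cre recombinase is driven by Cd4 regulatory sequence and can switch on a tdTomato reporter. How many animals were used, how the cells were sorted and what "primed" stands for is not given in the sources used here. Since all cells belong to 1 sample, no p-value was computed: counts of cells, ranges and Spearman correlations over cells (rho) are descriptions of these cells, and ± gives the standard deviation (SD) over cells.

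As cells prepare to divide, cyclins A and B activate Cdk1, condensin compacts the chromosomes and topoisomerase II untangles them. Kinetochores are built on centromeres and attach to the spindle, and the spindle checkpoint restrains Cdc20 until every chromosome is attached. The anaphase-promoting complex, with Cdc20 and the E2 enzyme Ube2c, then marks cyclin B and securin for destruction, and the central spindle proteins direct cleavage of the cell. Many of these genes are transcribed late in the cell cycle from promoters that carry a cell cycle genes homology region (CHR), bound by MuvB complexes, and CCAAT boxes, bound by NF-Y. In bone marrow most long-term stem cells are out of cycle, whereas erythroid progenitors divide rapidly, and progenitors also cycle. Of the pair of genes used below to order cells, Klf1 encodes an erythroid transcription factor and Cd34 a surface sialomucin. In adult mice Cd34 is low or absent on long-term stem cells and present on short-term stem cells and many progenitors, so it does not mark cells out of cycle.

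Promoters of 8 of the genes are printed because their shared motifs are one feature that the choice of the genes did not use. Each line runs 5′ to 3′ on the gene's own strand, from 130 bases before to 20 bases after the start of the gene in RefSeq (build GRCm38.p6). Capitals mark CHR letters (TTTGAA or TTTAAA) and CCAAT boxes (CCAAT), read on either strand, so TTCAAA and ATTGG are the same motifs on the other strand. The regions are chr13:100786467-100786616 for Ccnb1, chr10:69352893-69353042 for Cdk1, chr11:99024170-99024319 for Top2a, chr4:118437324-118437473 for Cdc20 and chr1:169531445-169531594 for Nuf2 on the minus strand. They are chr5:45669795-45669944 for Ncapg, chr2:164769799-164769948 for Ube2c and chr7:80294346-80294495 for Prc1 on the plus strand. The first 7 carry a CHR within 50 bases before the start, and Nuf2 is shown as a gene without either motif.
Ccnb1: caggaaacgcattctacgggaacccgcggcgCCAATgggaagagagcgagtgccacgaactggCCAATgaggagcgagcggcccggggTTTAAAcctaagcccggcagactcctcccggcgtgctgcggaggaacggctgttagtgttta
Cdk1: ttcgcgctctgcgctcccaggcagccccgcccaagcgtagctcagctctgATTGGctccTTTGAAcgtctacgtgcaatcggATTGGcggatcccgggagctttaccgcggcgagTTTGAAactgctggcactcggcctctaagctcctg
Top2a: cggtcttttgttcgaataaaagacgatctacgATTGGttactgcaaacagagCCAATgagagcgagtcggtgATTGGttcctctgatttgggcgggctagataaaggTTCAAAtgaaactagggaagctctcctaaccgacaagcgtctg
Ncapg: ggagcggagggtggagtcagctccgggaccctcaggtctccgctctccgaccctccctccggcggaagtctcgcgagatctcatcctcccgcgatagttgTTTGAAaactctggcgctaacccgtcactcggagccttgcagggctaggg
Cdc20: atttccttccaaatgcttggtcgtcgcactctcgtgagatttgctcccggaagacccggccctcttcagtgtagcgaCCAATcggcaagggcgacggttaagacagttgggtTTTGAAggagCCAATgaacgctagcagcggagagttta
Ube2c: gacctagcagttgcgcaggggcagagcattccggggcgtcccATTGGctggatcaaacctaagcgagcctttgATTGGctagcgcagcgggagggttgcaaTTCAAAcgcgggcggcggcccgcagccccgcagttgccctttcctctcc
Prc1: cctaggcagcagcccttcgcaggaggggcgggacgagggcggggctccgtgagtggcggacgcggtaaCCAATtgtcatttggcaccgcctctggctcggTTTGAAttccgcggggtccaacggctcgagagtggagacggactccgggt
Nuf2: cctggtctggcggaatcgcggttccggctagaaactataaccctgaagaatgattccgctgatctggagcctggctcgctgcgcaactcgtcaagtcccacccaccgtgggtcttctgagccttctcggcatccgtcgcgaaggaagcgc

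A promoter of 300 bases (250 before to 50 after the start) was held by RefSeq for 35 of the 41 genes, the others being Ccna2, Smc4, Aurkb, Incenp, Tpx2 and Kif20a. A CHR, in either of its spellings and on either strand, occurred in 30 of the 35 (85.7%), against 30.6% of the 27025 genes with a promoter in the table and 21.9% of the 7212 such genes that were measured well enough to be compared below. Within 100 bases before the start, or after it, 26 of the 35 (74.3%) had one, against 14.7% and 8.79%. In Kif2c, Ckap2, Birc5 and Ncapd2 the letters lay only farther than 100 bases before the start, and in Ncaph, Nuf2, Bub1, Mad2l1 and Nusap1 they were absent from all 300 bases. A CCAAT box was found in 27 of the 35 (77.1%), against 41.1% and 43.5%. Genes with several annotated starts had several windows, and a motif in any of them counted. A CHR and a CCAAT box can share at most 1 letter at their edges.

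The motifs were also often spaced alike. A CCAAT box starting 20 to 40 bases before a CHR occurred in 18 of the 35 promoters (51.4%), against 1.65% of all genes with a promoter and 1.76% of the measured ones, a spacing chosen after the positions were seen. These shares also carry how often both motifs occur at all. Of the genes with both, 18 of 26 in the list had this spacing, against 445 of 3306 with a promoter and 127 of 657 measured ones. Of 50 further mitosis genes outside the list, 41 had a promoter entry. Among these, 20 (48.8%) had a CHR, 22 (53.7%) a CCAAT box, 12 both and 4 (9.76%) this spacing. In Ccnb1 the CHR lies at position -42 and the nearer CCAAT box at -67, counted from the start of the gene as position 0. In Ube2c the CHR lies at -29 and the nearest CCAAT boxes at -57 and -88, and in Top2a the CHR lies at -23 and a CCAAT box at -58. Among the 20 G1/S genes, which act in DNA replication, 17 had a promoter entry. Of these, 6 (35.3%) had a CHR, 10 (58.8%) a CCAAT box and 6 (35.3%) an E2F site (TTTCCCGC or TTTGGCGC). E2F letters occurred in 2 of the 35 mitosis promoters (5.71%), those of Ncapd2 and Ncapg, against 1.80% of all genes with a promoter and 3.97% of the measured ones. A TATA box (TATAAA) occurred in 1 of the 35 (2.86%), against 15.7% and 7.43%. A motif match is a description of letters and was not tied to binding here. In the cells, the median rho with the mean level of the other 40 genes was 0.717 for the 30 with one and 0.722 for the 5 without.

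**Figure D1:**
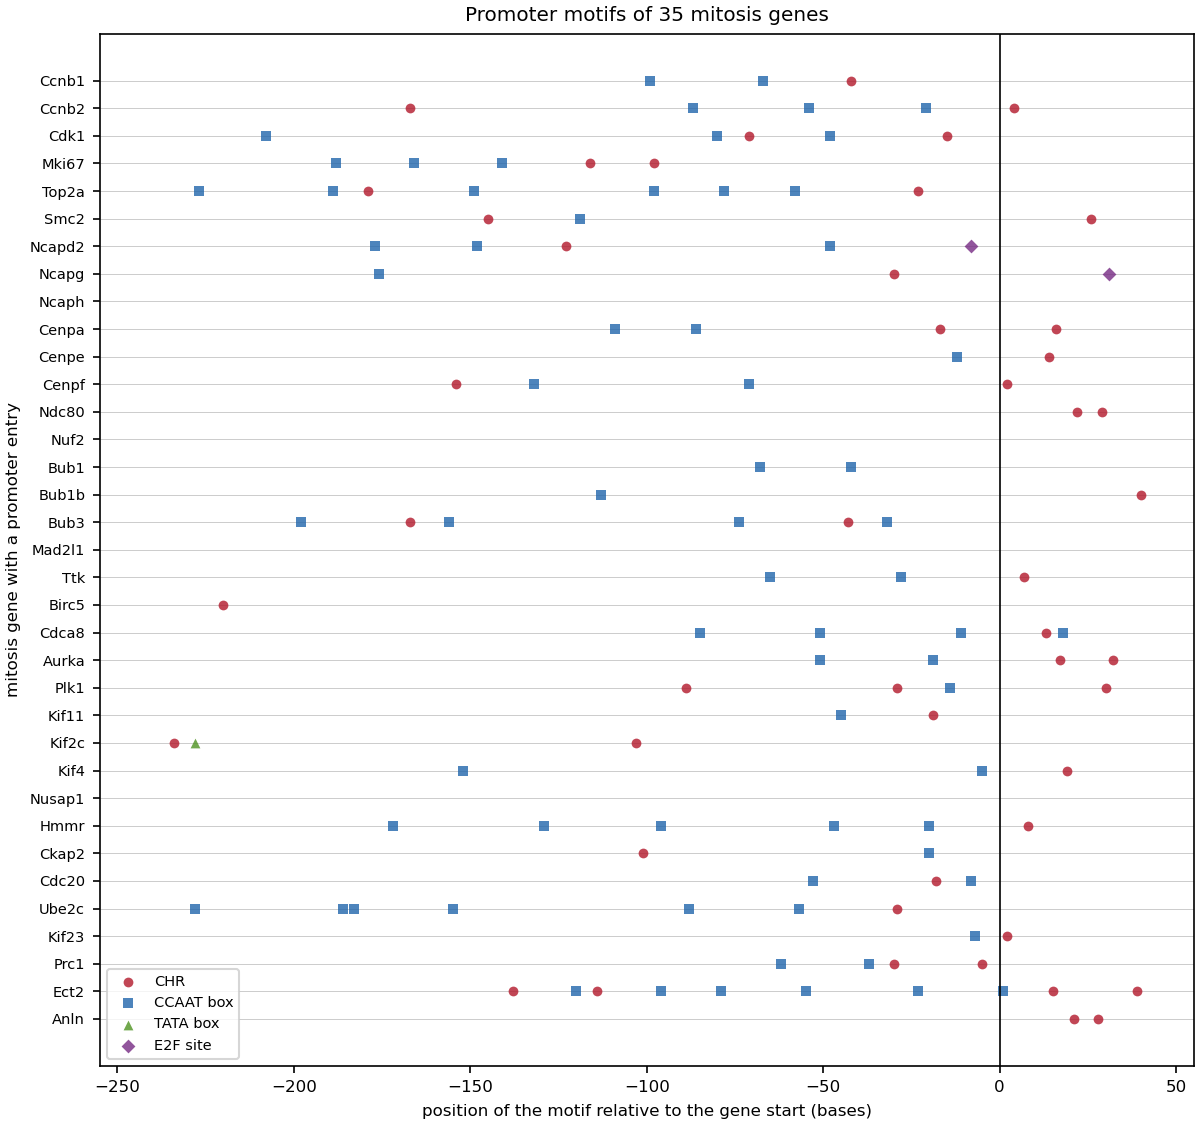
Positions of CHR, CCAAT box, TATA box and E2F letters in the promoters of the 35 mitosis genes with a RefSeq entry, in bases from the gene start (vertical line), genes ordered by role from top to bottom. CHR letters lie near or just after the start in 26 genes, with CCAAT boxes 20 to 40 bases before one in 18.

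Of the 52 cells, 49 were kept, those with 50000 reads or more, reads on 1000 genes or more and no more than 20% mitochondrial reads. Here a read is an estimated count of the authors rounded to a whole number, and CPM (counts per 1000000) is the number of reads scaled to an equal total in every cell. Kept cells held 85519 to 12446477 reads (median 2187579). By Klf1 (high from 100 CPM) and Cd34 (positive from 10 CPM), 33 cells were Klf1-high Cd34-low, 3 were Klf1-high Cd34-positive (cells 2, 21 and 47), 11 were Klf1-low Cd34-positive and 2 were neither (cells 9 and 34). Cells with and without Cd34 were far apart on this scale: Cd34 was at most 0.988 CPM in the Klf1-high Cd34-low cells and at least 91.0 CPM in the Cd34-positive cells.

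Several cells stood apart before any mitosis gene was considered. Cell 9 had 85519 reads and 2304 CPM of the B lineage gene Cd79a, and cell 34 had 39230 CPM of the myeloid gene Lyz2. Cells 6 and 13 correlated at 0.919 and cells 23 and 25 at 0.710 in log2 values over genes, against a median of 0.402 over pairs of cells, so results are also given without cells 9, 13, 23 and 34. The label HSC was checked against 9 HSC markers, of which 2 were read in 50% or more of the kept cells. Their summed level had a median of 470 CPM (140 to 2556) in Klf1-high Cd34-low cells and 2140 CPM (501 to 2632) in all 14 Cd34-positive cells. All 9 had a lower mean in the Klf1-high Cd34-low cells, where Kit made up 84.2% of the summed mean (537 CPM, against 670 CPM in Cd34-positive cells). Without Kit the medians of the sum were 3.21 CPM (0 to 1390) in Klf1-high Cd34-low cells and 1284 CPM (276 to 1762) in Cd34-positive cells. For 8 erythroid markers the medians were 6534 CPM (627 to 12451) and 248 CPM (15.9 to 8047) in the same groups. Car1 made up 86.2% of that sum in Klf1-high Cd34-low cells, and without it the medians were 1007 CPM (250 to 1691) and 131 CPM (0 to 1681). Of the 8 markers 5 had a higher mean in Klf1-high Cd34-low cells (among them Car1, Gata1, Epor and Tfrc), while 3 of late red cell maturation had a lower one, at 6.84 and 37.8 CPM for Hba-a1, 0 and 6.09 CPM for Hbb-bs, and 0.0186 and 3.41 CPM for Alas2. By the HSC markers other than Kit, and by these 5 erythroid markers, the Klf1-high Cd34-low cells thus went against the label. The haemoglobin genes and Alas2 could not decide it, since their medians were 0 CPM in both groups and their means rested on few cells. The highest Cd34-positive values were 427 CPM for Hba-a1, 56.0 CPM for Hbb-bs and 47.7 CPM for Alas2. Hbb-bs and Alas2 each reached 10 CPM in 1 Cd34-positive cell and in no Klf1-high Cd34-low cell. Hba-a1 reached it in 7 Klf1-high Cd34-low and 4 Cd34-positive cells. Myeloid markers (6 genes, 1 of them at 0 in all cells) had medians of 169 CPM (46.8 to 690) and 903 CPM (325 to 2557), and megakaryocyte markers (5 genes) 47.2 CPM (1.66 to 1185) and 635 CPM (30.5 to 2999). B lineage markers (5 genes) had medians of 0.248 CPM (0 to 707) and 0.442 CPM (0 to 581), with 85.4 CPM of Cd79a in cell 11 and 65.1 CPM in cell 15, and 4 of the 5 T lineage markers were at 0 in all cells.

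The mitosis genes were found in most cells at uneven levels. A read was found in at least 50% of the kept cells for 38 of the 41 genes, and 10 CPM was reached in as many cells for 31. Of the 9158 genes compared below, 75.3% had a read and 55.9% had 10 CPM in at least 50% of the cells. Detection ran from 22 of 49 cells (44.9%, exact Clopper-Pearson 95% interval 30.7 to 59.8) for Ttk, a checkpoint kinase, to 48 cells (98.0%, 89.1 to 99.9) for Smc4, a condensin subunit. Such intervals cover counting error only, since copies made by PCR and not marked by molecular identifiers are not independent molecules. The mean level ran from 18.2 CPM for Ttk to 357 CPM for Top2a, which encodes topoisomerase II alpha. CPM does not correct for length, so levels of different genes are compared in TPM, the same reads per exon length scaled to an equal total: the highest were Cdc20 at 331 ± 385 TPM and Ccnb2 at 321 ± 356 TPM, and the lowest were Ttk at 9.41 ± 17.1 TPM and Cenpf at 9.43 ± 15.3 TPM (SD over 49 cells). The SD was near or above the mean for all 4.

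The cells carried very different amounts of these genes. The mean over the 41 genes of log2(CPM + 1), called the mitosis level below, was lowest in cell 27 (0.79) and highest in cell 29 (7.80), and cell 29 held the highest value of 12 genes. In the Klf1-high Cd34-low cells it ran from 1.48 to 7.80 with a median of 6.12, and in the Klf1-low Cd34-positive cells from 0.79 to 3.04 with a median of 1.18. The 3 Klf1-high Cd34-positive cells had levels of 1.91 (cell 47), 3.77 (cell 21) and 7.36 (cell 2). Most Klf1-high Cd34-low cells were therefore above every Klf1-low Cd34-positive cell, but the groups overlapped through cells 50 (1.48), 15 (2.35) and 17 (2.38). In cell 9 the level was 2.46 and rested on few genes: 13 had a read, yet 6 genes had their highest value of all cells there, among them Cdca8 at 3660 CPM and Cdc20 at 1649 CPM. Of all reads, the 41 genes took 0.625% in Klf1-high Cd34-low cells and 0.104% in Klf1-low Cd34-positive cells. CPM gives a share of each cell's reads, so less mitosis RNA and more of other RNA in a cell cannot be told apart.

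**Figure D2:**
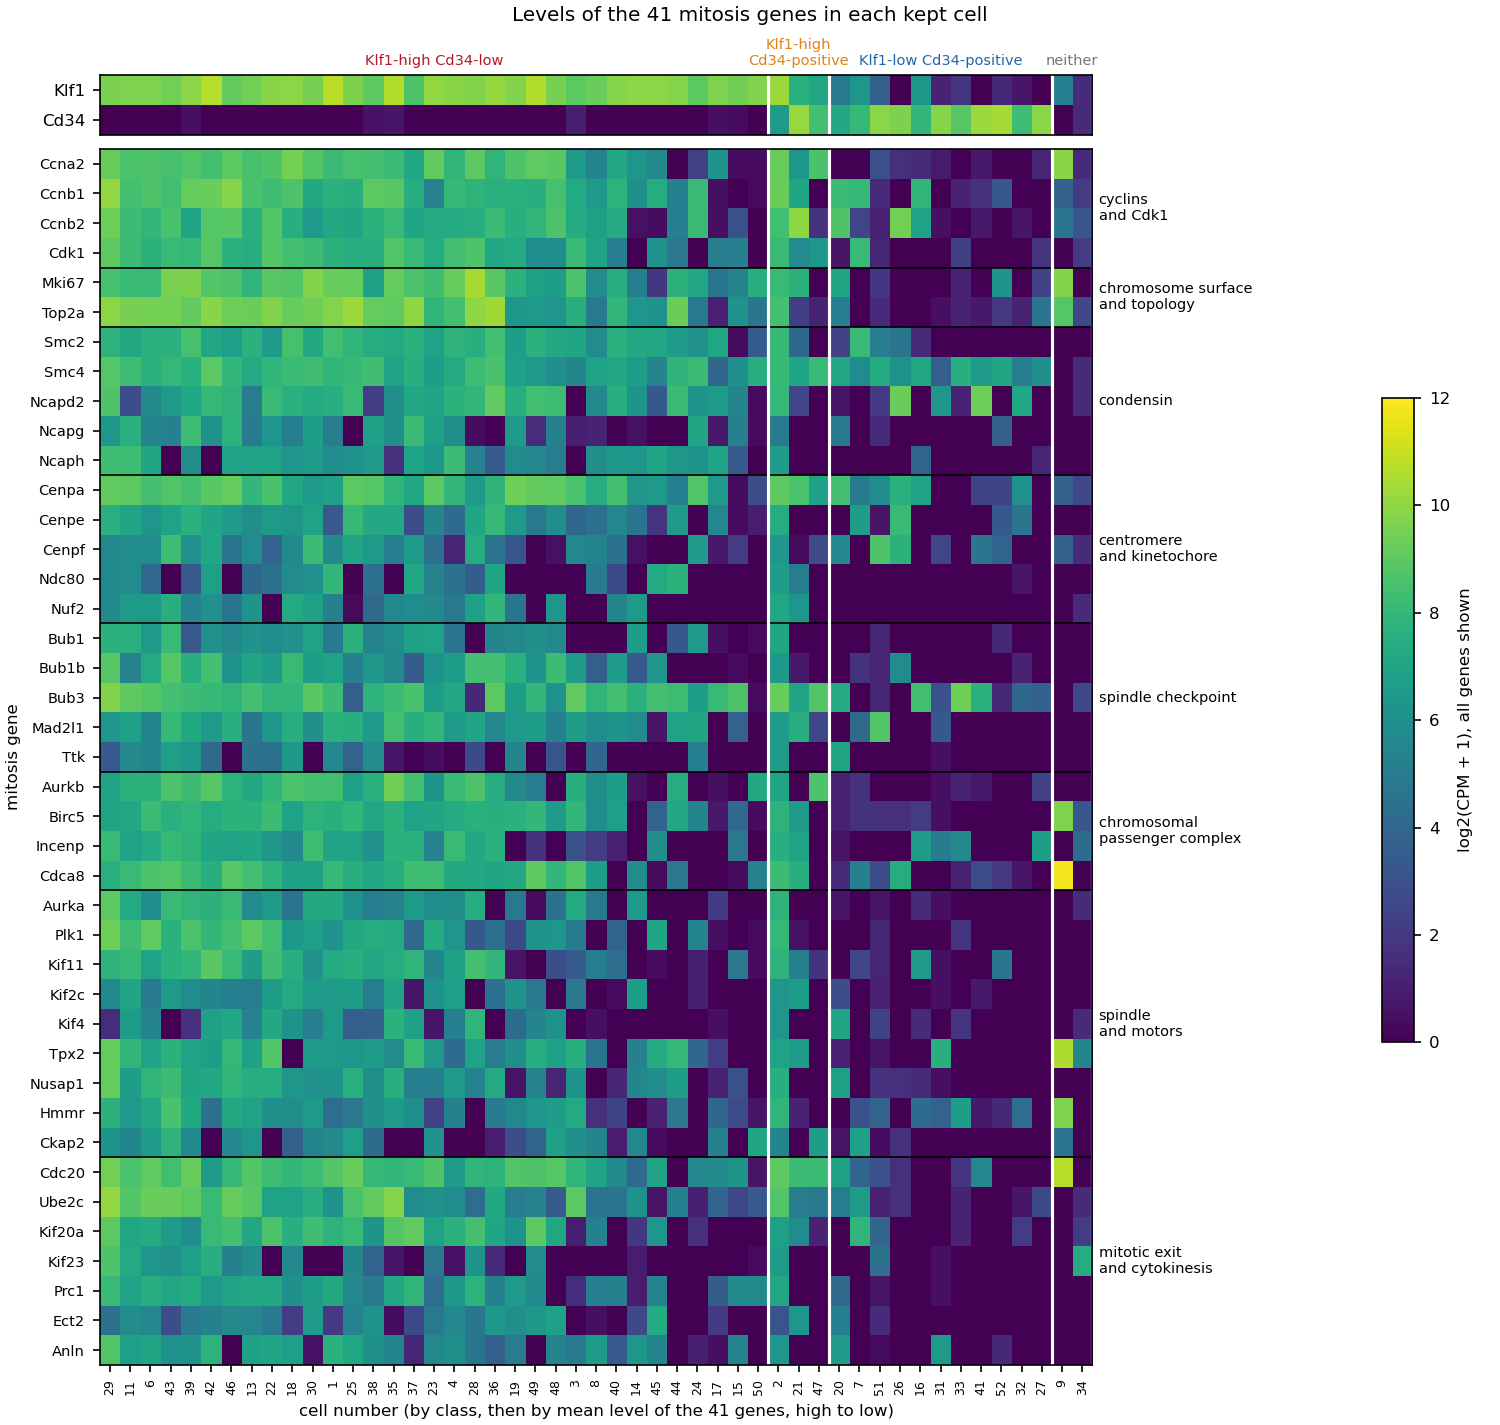
Levels, as log2(CPM + 1), of Klf1, Cd34 and the 41 mitosis genes (rows, grouped by role) in each of the 49 kept cells (columns, grouped by class and ordered by mitosis level). Most rows are bright across the 33 Klf1-high Cd34-low cells and dark in the 11 Klf1-low Cd34-positive cells, Smc4 is present in both, and cell 9 shows a few isolated high values.

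Setting the 33 Klf1-high Cd34-low cells against all 14 Cd34-positive cells, 34 of the 41 genes had at least 2-fold higher mean CPM in the Klf1-high Cd34-low cells, where 19.6% of the 9158 genes compared did so. None of the 41 was at least 2-fold lower, against 20.2% of all genes. The median fold was 3.91 for the 41 genes and 1.01 for all genes. All 41 genes had passed the filter on low values, which asked for a mean of 5 CPM or more and reads in 10 cells or more. The groups differed in depth: the median was 2887968 reads in the Klf1-high Cd34-low cells and 1083630 in the Cd34-positive cells. With every cell thinned to 50000 reads the count was 33, and against the 11 Klf1-low Cd34-positive cells alone it was 37. Among cells of at least 1000000 reads it was 27. That setting kept 29 Klf1-high Cd34-low and 7 Cd34-positive cells, among the latter the Klf1-high cells 2 and 21, so the make-up of the group changed with depth. Leaving out each cell in turn gave 32 to 35 genes, and 32 genes passed 2-fold without any 1 cell. The size of a ratio was less stable: for 35 of the 41 genes it moved by over 1.5 times without 1 cell, in each case a Cd34-positive cell without which the ratio was higher, and for 25 genes cell 2 alone moved it so far. Ratios are therefore given below also without the cell that moved them most, where that was over 1.5 times, and genes are not ranked by them. The erythroid, HSC, myeloid and megakaryocyte markers above moved with the same split of cells, and their part in the result was not tested.

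Cyclins and Cdk1 differed between the groups for 3 of 4 genes. Ccna2 (cyclin A2) had 0, 342.7 and 712 CPM as lowest, median and highest value in the Klf1-high Cd34-low cells, and 0, 1.09 and 592 CPM in the Cd34-positive cells. Cdk1, the kinase that the mitotic cyclins activate, had 0, 182 and 524.1 CPM in the Klf1-high Cd34-low cells and 0, 0.988 and 270 CPM in the Cd34-positive cells. The ranges overlapped fully at the low end, and the medians stood apart. The ratios of the means were 3.91 for Ccna2, 4.17 for Cdk1 and 2.60 for Ccnb1 (cyclin B1), and without cell 2 they were 8.17, 6.41 and 4.02. For Ccnb2 (cyclin B2) it was 1.13, with means of 207 ± 155 CPM in Klf1-high Cd34-low cells and 183 ± 315 CPM in Cd34-positive cells, although 28 of 33 and 5 of 14 cells reached 10 CPM. Its highest value of all, 984 CPM, was in cell 21, a Klf1-high Cd34-positive cell, without which the ratio was 1.70.

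Both genes of the chromosome surface and topology passed 2-fold. Top2a had 1.17, 580 and 1264 CPM in the Klf1-high Cd34-low cells and 0, 1.30 and 340 CPM in the Cd34-positive cells. It reached 10 CPM in 32 of 33 and 3 of 14 cells, and the ratio of the means was 17.1. Mki67, which encodes the Ki-67 protein that coats mitotic chromosomes, had 2.80, 317 and 1340 CPM against 0, 0.641 and 276 CPM in the same groups, with a ratio of 7.26. Cell 2, the Cd34-positive cell with the highest mitosis level, held the Cd34-positive maximum of both, and of 24 of the 41 genes in all. Without cell 2 the ratio was 89.7 for Top2a, whose mean in the other 13 Cd34-positive cells was 5.61 CPM, and 11.1 for Mki67. The number of genes at 2-fold was then 35.

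Of the 5 condensin genes 3 passed 2-fold, and Smc4, an ATPase of the complex, was present in nearly every cell. Smc4 reached 10 CPM in all 33 Klf1-high Cd34-low and all 14 Cd34-positive cells, with 14.5, 200 and 508 CPM in Klf1-high Cd34-low cells and 11.5, 133 and 280 CPM in Cd34-positive cells, a ratio of 1.63. Its partner Smc2 had 0.284, 156 and 367 CPM and 0, 0.856 and 283 CPM in those groups, a ratio of 3.85. The kleisin Ncaph had medians of 78.9 and 0 CPM and a ratio of 10.5, and the HEAT-repeat subunit Ncapg had medians of 36.9 and 0 CPM and a ratio of 13.2. Both subunits had reads in few Cd34-positive cells, with 10 CPM in 2 cells for Ncaph and 3 cells for Ncapg. Without cell 2 their ratios were 76.1 for Ncaph and 20.8 for Ncapg, and without cell 7 that of Smc2 was 6.56. The other HEAT-repeat subunit, Ncapd2, had a ratio of 1.28 and its highest value, 652 CPM, in cell 41, a Klf1-low Cd34-positive cell.

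At the centromere and kinetochore 3 of 5 genes passed 2-fold. Cenpa, the centromeric histone H3 variant, had 0.284, 346 and 652 CPM in Klf1-high Cd34-low cells and 0, 60.3 and 515 CPM in Cd34-positive cells, a ratio of 2.31. Of the Ndc80 complex, which binds microtubules, Ndc80 had a read in 23 of 49 cells and Nuf2 in 26, while the complex's other subunits, which are not among the 41, had one in 49 cells (Spc24) and 33 cells (Spc25). Nuf2 was the 1 gene of the 41 without a read in any Klf1-low Cd34-positive cell. The ratio was 4.51 for Ndc80 and 3.32 for Nuf2, and 17.2 and 8.99 without cell 2. Cenpe, a kinetochore motor, lay just under the fold at 1.98, with means of 83.8 ± 73.2 CPM in Klf1-high Cd34-low cells and 42.3 ± 85.4 CPM in Cd34-positive cells, and its ratio was 3.49 without cell 26. Cenpf, a large kinetochore protein, had a ratio of 1.05, and its highest value was 413 CPM in cell 51, a Klf1-low Cd34-positive cell, without which the ratio was 2.03. For Ccnb2, Ncapd2, Cenpe, Cenpf, Mad2l1 and Ttk the highest value of all cells lay in a Cd34-positive cell.

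Among spindle checkpoint genes, Bub1b, which encodes BubR1, had 0, 97.8 and 477 CPM in Klf1-high Cd34-low cells and 0, 0 and 82.5 CPM in Cd34-positive cells, a ratio of 12.97. Bub1, a checkpoint kinase, had a ratio of 6.87, and Mad2l1, the Cdc20 inhibitor MAD2, had 2.06. Without cell 2 the ratio was 28.6 for Bub1b. For Bub1 the mean in the other 13 Cd34-positive cells was 0.222 CPM, from 6 reads, and the ratio without cell 2 was 299. Cell 2 thus set the size of the Bub1 ratio and not its direction. The ratio of Mad2l1 was 4.61 without cell 51 and, with 1 of several other cells left out, as low as 1.91, which is below 2-fold. Bub3, the WD-repeat partner of Bub1 and BubR1, was broadly present, with 0.292, 283 and 856 CPM in Klf1-high Cd34-low cells and 0, 71.5 and 647.1 CPM in Cd34-positive cells, a ratio of 1.57. Ttk, the kinase Mps1, was the least abundant of the 41 in CPM, with a ratio of 1.21 and its highest value, 138 CPM, in cell 20, a Klf1-low Cd34-positive cell, without which the ratio was 2.77.

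The chromosomal passenger complex passed 2-fold with all 4 genes. Birc5 (survivin) had 0, 168 and 298 CPM in Klf1-high Cd34-low cells and 0, 0.786 and 218 CPM in Cd34-positive cells, a ratio of 6.72, and 30 of 33 and 2 of 14 cells reached 10 CPM. The ratio was 4.96 for the kinase Aurkb, 3.83 for Cdca8 (borealin) and 2.45 for the scaffold Incenp. Without cell 2 it was 20.3 for Birc5 and 6.11 for Cdca8, and without cell 47 it was 18.01 for Aurkb. Of the 14 Cd34-positive cells, 2 reached 10 CPM for Aurkb, 4 for Cdca8 and 6 for Incenp.

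All 9 spindle and motor genes passed 2-fold. Plk1, a mitotic kinase, had 0, 78.6 and 652 CPM in Klf1-high Cd34-low cells and 0, 0 and 254 CPM in Cd34-positive cells, where cell 2 was the 1 cell at 10 CPM or more, and its ratio was 8.07. Aurka, the centrosome kinase, had a ratio of 5.96 and likewise reached 10 CPM in 1 Cd34-positive cell, again cell 2. In the other 13 Cd34-positive cells the mean was 0.344 CPM for Plk1 (9 reads in all) and 0.252 CPM for Aurka (5 reads). Without cell 2 the ratios were higher, at 434 for Plk1 and 368 for Aurka. Cell 2 thus set the size of both ratios and not their direction, and the higher values rest on those few reads. The kinesins had ratios of 4.68 for Kif11 (spindle bipolarity), 3.56 for Kif2c (a microtubule depolymerase) and 2.92 for Kif4 (a chromokinesin). The spindle assembly factors Nusap1 and Tpx2 had 4.77 and 4.41, and the microtubule proteins Hmmr and Ckap2 had 2.36 and 2.21. Without cell 2 the ratio was 10.6 for Kif11, 11.3 for Nusap1 and 5.13 for Hmmr. It was 7.49 for Kif2c without cell 21, 7.05 for Kif4 without cell 20, 7.66 for Tpx2 without cell 31 and 3.66 for Ckap2 without cell 7, and Ckap2 was below 2-fold, at 1.91, without cell 43.

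All 7 mitotic exit and cytokinesis genes passed 2-fold as well. Ube2c had 0.560, 70.9 and 1078 CPM in Klf1-high Cd34-low cells and 0, 1.69 and 432 CPM in Cd34-positive cells, a ratio of 5.38. Its mean in Klf1-high Cd34-low cells, 243 ± 288 CPM, lay far above its median, so its level was uneven among them, although 29 of the 33 reached 10 CPM. Cdc20, the activator of the anaphase-promoting complex, had 0, 252 and 699 CPM and 0, 4.79 and 525.6 CPM in those groups, a ratio of 2.93. Prc1, which bundles the central spindle, had a ratio of 7.69, the kinesins Kif20a and Kif23 had 5.98 and 4.90, the RhoA activator Ect2 had 4.03 and the contractile ring scaffold anillin (Anln) had 3.81. Without cell 2 the ratio was 15.8 for Ube2c, 4.59 for Cdc20, 64.2 for Prc1 and 26.1 for Kif23, and it was 12.3 for Kif20a without cell 7 and 10.3 for Ect2 without cell 21. Kif23 had a read in 23 of 49 cells, with a median of 0.645 CPM in Klf1-high Cd34-low cells. Over all roles, 9 of the 41 genes reached 10 CPM in no Klf1-low Cd34-positive cell, against 6.04% of the 9158 genes compared.

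Other cell cycle genes were compared in the same way. Of 50 further mitosis genes 49 passed the filter, and 33 were at least 2-fold higher in Klf1-high Cd34-low cells and 0 lower (median fold 3.03). The Cdk1 adaptors Cks1b and Cks2 had 280 and 369 CPM on average in Klf1-high Cd34-low cells, and 80.0 and 79.9 CPM in Cd34-positive cells. The transcription factor Foxm1, which drives G2/M genes, had 26.1 and 2.44 CPM. Its median was 0 CPM in both groups, and it reached 10 CPM in 11 of 33 and 2 of 14 cells. Of the 20 G1/S genes, 11 were at least 2-fold higher and 1 lower (median fold 2.16): the replication factor Cdc45 had 109 and 7.70 CPM, and the lower one, E2f1, had 26.9 and 70.7 CPM. The medians of E2f1 ran the other way, at 11.1 and 0 CPM, and its highest Cd34-positive value was 534 CPM. It reached 10 CPM in 17 of 33 and 4 of 14 cells. Of the 4 CDK inhibitors that passed the filter, 0 were higher and 3 lower, with Cdkn1a (p21) at 7.87 CPM in Klf1-high Cd34-low and 67.0 CPM in Cd34-positive cells, Cdkn1b (p27) at 7.52 and 37.4 CPM, and Cdkn2d at 14.4 and 99.1 CPM. These lists read against the same background of 19.6% higher and 20.2% lower genes.

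Over the 49 cells the mitosis level had a rho of 0.657 with Klf1 and -0.633 with Cd34. Within the 33 Klf1-high Cd34-low cells the values were 0.0394 with Klf1 and -0.136 with Cd34, where Klf1 spanned 402 to 1648 CPM and Cd34 was at 0 or close to it. The relation over all cells was thus not seen inside the largest class, where Cd34 hardly varied. Inside the smaller classes no correlation was computed. In the 3 Klf1-high Cd34-positive cells Klf1 was 141, 197 and 1160 CPM at mitosis levels of 1.91, 3.77 and 7.36. Of the 11 Klf1-low Cd34-positive cells, the lowest, cell 27 (0.79), had 0 CPM of Klf1 and the highest, cell 20 (3.04), had 28.1 CPM. Cell 16, with the most Klf1 of the 11 (82.2 CPM), had a level of 1.66. Total reads had a rho of 0.431 with the mitosis level over the 49 cells and 0.110 within the 33, and the number of genes with a read had 0.605 and 0.185. Among cells of at least 1000000 reads the rho was 0.429 with Klf1 and -0.446 with Cd34. Without cells 9, 13, 23 and 34 it was 0.644 and -0.637.

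The same held role by role over the 49 cells. With Klf1, rho ran from 0.580 for the chromosomal passenger complex to 0.662 for the spindle checkpoint, and with Cd34 from -0.696 for the chromosome surface and topology genes to -0.547 for the centromere and kinetochore genes. By gene, Smc2 was closest to Klf1 at 0.684, and Cenpf was farthest at 0.1001. With Cd34 the lowest value was that of Top2a at -0.724, and Cenpf was again nearest to 0 at -0.197.

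**Figure D3:**
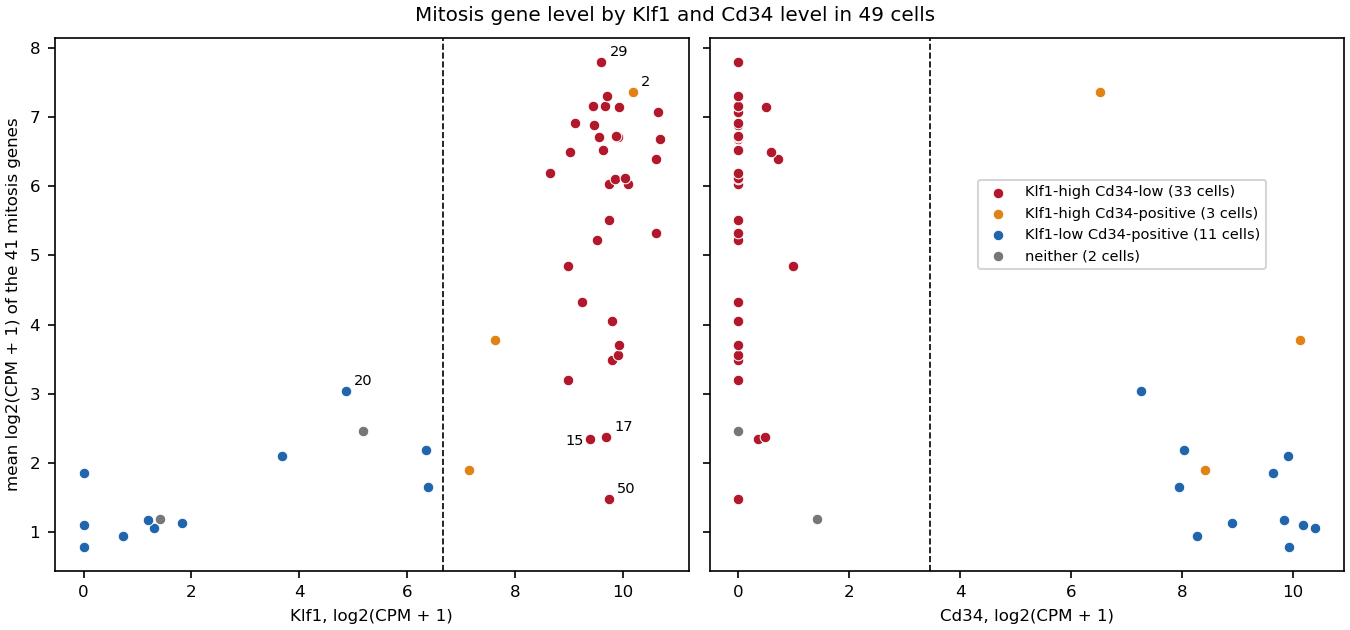
Mean log2(CPM + 1) of the 41 mitosis genes in each of 49 cells against log2(CPM + 1) of Klf1 (left) and Cd34 (right), coloured by class, dashed lines marking 100 CPM of Klf1 and 10 CPM of Cd34, numbers naming cells. The 33 Klf1-high Cd34-low cells span 1.48 to 7.80 with no trend along Klf1, and the Klf1-low Cd34-positive cells lie between 0.79 and 3.04.

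The 41 genes varied together from cell to cell. Their mean pairwise rho was 0.499 (SD 0.146 over 820 pairs, from -0.0418 to 0.853), against 0.0606 over all pairs of the 9158 genes, and 431 pairs were at 0.5 or above while 2 were below 0. Within the 33 Klf1-high Cd34-low cells it was 0.362, against 0.0124 over all genes there, so co-variation was also present inside that class. The closest pair was Mki67 with Top2a at 0.853, followed by Ccna2 with Cdc20 at 0.839 and Ccnb2 with Cenpa at 0.815. Cdk1 appeared in several close pairs, with Kif20a at 0.814, Ube2c at 0.793, Aurkb at 0.791 and Kif11 at 0.789. The 5 lowest pairs all held Ckap2 or Ncapd2, with Ndc80 and Ckap2 at -0.0418 and Ncapd2 and Ckap2 at -0.0211. Cells share depth between genes, and the rho of the mitosis level with total reads is given above. With every cell thinned to 50000 reads the mean was 0.442, and without cells 9, 13, 23 and 34 it was 0.502.

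A gene's rho with the mean level of the other 40 was at least 0.5 for 38 of the 41, against 5.43% of the 9158 genes for their rho with the mean of the 41 (median 0.715 for the 41 and 0.176 for all genes). Plk1 followed the rest most closely at 0.880, with Ube2c at 0.854, Top2a at 0.828 and Nusap1 at 0.827. The 3 genes under 0.5 were Ckap2 at 0.386, Ncapd2 at 0.400 and Bub3 at 0.452. Within roles, the mean pairwise rho was 0.600 for cyclins and Cdk1, 0.553 for the chromosomal passenger complex, 0.541 for mitotic exit and cytokinesis and 0.498 for spindle and motors. It was lower for the centromere and kinetochore at 0.413, condensin at 0.405 and the spindle checkpoint at 0.387, so members of a role did not always follow each other more closely than the rest of the list.

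**Figure D4:**
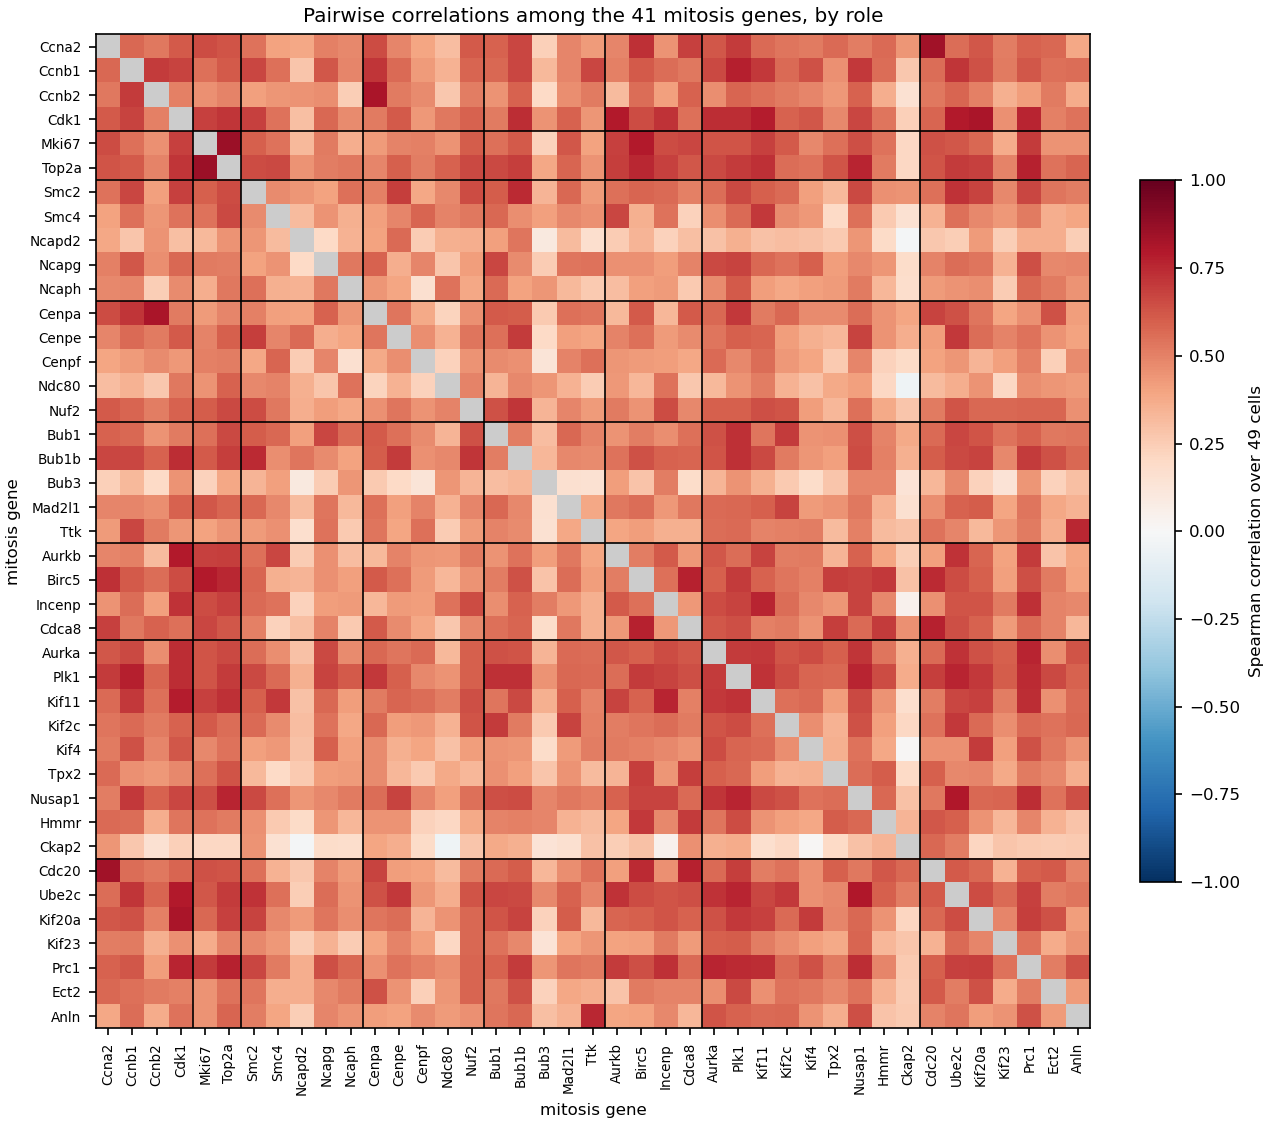
Spearman correlations over 49 cells between each pair of the 41 mitosis genes, ordered by role (black lines), red positive and blue negative, with the diagonal in grey. Nearly the whole matrix is positive, Mki67 with Top2a is highest at 0.853, and the rows of Ckap2, Ncapd2 and Bub3 are palest.

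The genes outside the list that followed the mitosis level most closely included several with known roles in cell division. Among the 10 with the highest rho over 49 cells were Cks1b (0.840), Knl1 (0.835), Tubb4b (0.825), Shcbp1 (0.808), Cks2 (0.804), Kif20b (0.803), Espl1 (0.797), Kpna2 (0.785) and Arhgap19 (0.778). Knl1 is the kinetochore scaffold that recruits Bub1, and Espl1 is separase, the protease that opens cohesin. Of these, Cks1b, Knl1, Cks2 and Espl1 were on the list of further mitosis genes. The 5 with the lowest rho were Syt11 (-0.730), B2m (-0.724), Lyz2 (-0.710), Paip1 (-0.707) and Rbm4b (-0.705). B2m encodes the light chain of MHC class I and Lyz2 a lysozyme of myeloid cells. Syt11, Paip1 and Rbm4b also had a rho of -0.619, -0.646 and -0.646 with total reads, and the part of depth was not tested.

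The order of early and late genes was examined with the 10 condensin, centromere and kinetochore genes as early and the 7 mitotic exit and cytokinesis genes as late, a division by the step at which the proteins act. Their mean log2 levels had a rho of 0.829 over the 49 cells and 0.686 within the 33 Klf1-high Cd34-low cells. At least 50% of each set (5 of the early and 4 of the late genes) reached 10 CPM in 27 cells (55.1%, interval 40.2 to 69.3), early genes alone did so in 7 (14.3%, 5.94 to 27.2), late genes alone in 1 (2.04%, 0.0517 to 10.9) and neither in 14 (28.6%, 16.6 to 43.3). Of the 33 Klf1-high Cd34-low cells, 25 had both, 6 early alone, 0 late alone and 2 neither. Of the 11 Klf1-low Cd34-positive cells, 0 had both, 1 had early alone, 1 late alone and 9 neither. A count of 0, read as up to 3 cells and not from an exact interval, allows a share of up to 9.09% of the 33 cells and 27.3% of the 11. The marks were unequal, since 4 of 7 late genes are 57.1%, and 4 of the 7 cells with early genes alone had 3 late genes. With 3 late genes as the mark, early genes alone were found in 3 cells and late genes alone in 3. Without Smc4, which reached 10 CPM in 47 of the 49 cells, the counts were 6 and 3. The excess of cells with early genes alone was thus absent under the lower mark. That mark was unequal the other way, since 3 of 7 late genes are 42.9%, so neither mark can settle the excess.

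The 7 cells with early genes alone were not alike. In cell 44 the mean log2 level was 4.85 for the early and 0.74 for the late genes, in cell 24 it was 4.91 and 1.32, and in cell 40 it was 5.55 and 2.72. Cells 17 and 14 were closer, with 3.85 and 2.24 in cell 17 and 4.49 and 3.32 in cell 14, and cell 3 had 3.19 and 3.48, so its late level was the higher one. Cell 26, the Klf1-low Cd34-positive one, had 4.36 and 0.47. Their depths ran from 113234 reads in cell 44 to 3404733 in cell 40. The 1 cell with late genes alone, cell 20, had 2.90 and 3.97. Among cells of at least 1000000 reads 4 cells had early genes alone, and the part of depth was not tested further.

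The levels were then set beside those of the DNA replication genes. Within the 33 Klf1-high Cd34-low cells the mean log2 level of the 20 G1/S genes had a rho of -0.318 with the mean of all 41 genes. By role it was negative for 7 of the 8: -0.383 with the spindle and motor genes, -0.371 with the late genes, -0.312 with the chromosomal passenger complex, -0.302 with Mki67 and Top2a, -0.289 with cyclins and Cdk1, -0.181 with the centromere and kinetochore genes and -0.168 with the spindle checkpoint. It was 0.0448 with condensin and -0.109 with the early genes as a whole. A negative value was thus not particular to the late genes. Over all 49 cells, which also differ in class, the same rho was positive: 0.365 for the late and 0.525 for the early genes. The 5 Klf1-high Cd34-low cells 17, 24, 44, 14 and 40, which had early genes alone, had G1/S levels of 8.31, 7.09, 8.24, 7.37 and 8.35, where the 33 cells ran from 4.03 to 8.67 with a median of 6.75. The remaining one of that class, cell 3, had 5.68, and cell 26 had 2.56. By gene within the 33 cells, Ube2c (-0.482), Kif11 (-0.442) and Nusap1 (-0.415) had the lowest rho with the G1/S level, and Ncapd2 (0.226), Ncaph (0.180), Ndc80 (0.132) and Smc2 (0.123) the highest. Smc4, although a condensin gene, had -0.380, so the condensin genes differed in sign. The rho of the late genes was -0.474 after thinning and -0.254 with all 52 cells.

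**Figure D5:**
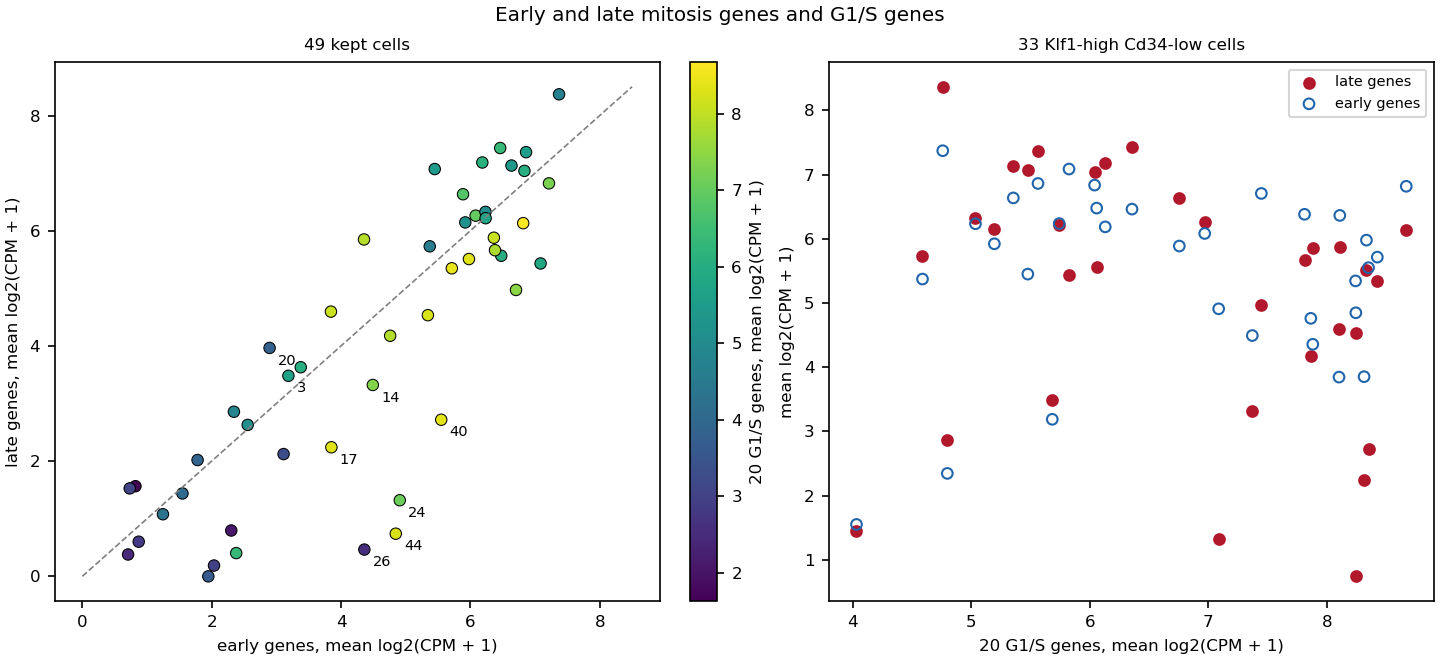
Left, mean log2(CPM + 1) of the 7 late against the 10 early mitosis genes in 49 cells, coloured by the mean level of 20 G1/S genes, with cells that have early or late genes alone numbered. Right, late (filled) and early (open) levels against the G1/S level in the 33 Klf1-high Cd34-low cells, where the late genes had a rho of -0.371 and the early genes -0.109.

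Gene by gene, the order was not strict. Over the 70 pairs of an early with a late gene, 42 had more cells with the early gene at 10 CPM and the late one below it than the reverse, 27 had fewer and 1 had equal numbers. For the 35 condensin pairs the counts were 23 and 12, and for the 35 centromere and kinetochore pairs 19 and 15. Smc4 reached 10 CPM in 47 cells and Kif23 in 17, and such differences in how often a gene reaches 10 CPM enter every pair, so the counts describe detection and not timing.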

How the data were processed

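The authors deposited estimated counts per gene, 4.23% of them not whole numbers, made from each cell's reads with Trim Galore 0.5.0 (trimming) and Salmon 0.03.1 (quantification) on GRCm38. These names and versions stand as in the submitters' processing notes. Which transcripts, strand setting and filters were used is not stated there. Counts were rounded, divided by each cell's total for CPM, and analysed as log2(CPM + 1). Symbols and exon lengths came from GENCODE M21 (GRCm38). The exons of 12 of the 41 genes overlap another annotated gene, among them Ccna2 (Exosc9), Cdc20 (Elovl1), Ube2c (Tnnc2), Kif20a (Cdc23) and Prc1 (Rccd1), so their reads are uncertain where the authors' counting could not tell the genes apart.

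Cells with under 50000 reads, under 1000 genes or over 20% mitochondrial reads were left out (cells 5, 10 and 12). All cells carry 1 label, so classes were set by Klf1 and Cd34 level, no test was made, and genes were called by a 2-fold ratio of mean CPM over cells. No doublet caller was run, since 52 cells are too few. Compared genes had a mean of 5 CPM or more and reads in 10 cells or more. The 41 genes, the other lists and the marks on Klf1 and Cd34 were chosen with earlier results of these data known. Named were all 41 genes, genes of the lists where a list is described, and the 10 highest and 5 lowest other genes by rho, of which 1 is not reported here. Promoter windows came from RefSeq (GRCm38.p6), matched by symbol. The scripts ran in Python 3.11.15 with numpy 2.4.6, pandas 2.3.3, scipy 1.17.1 and matplotlib 3.10.9, and were tested on simulated counts. Alternatives covered the cell filter, depth, scaling, transcript length, thresholds, pseudocount and correlation measure.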

Additional observations from a re-analysis of the deposited data

Results flagged for a closer look

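Mitosis genes were also read in the 3 cells that the filter left out, which enter no comparison above. Cell 5, with 28.3% mitochondrial reads, had 32 of the 41 genes with a read and a summed level of 8180 CPM from 2513 reads, led by Mki67. Cell 12, with 32439 reads in all, had 36 genes with a read and 5148 CPM from 167 reads, and cell 10, with 39692 reads, had 11 genes and 831 CPM from 33 reads. Among the kept cells the summed level ran from 805 to 15133 CPM in the Klf1-high Cd34-low cells and from 214 to 2334 CPM in the Klf1-low Cd34-positive cells.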

How the results depend on the processing

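Under 25 alternative settings, 119 values were recomputed, of which 105 stayed close to those reported (within 1.5 times for counts, and within 0.1 for correlations with Klf1, Cd34 or the G1/S genes), and 14 moved. Of the 119, 28 were identical to the reported value, some because the setting changed no cell or gene, such as Klf1-high from 50 or 300 CPM. The rho with Klf1 inside the Klf1-high Cd34-low cells lay between -0.0274 and 0.135, on both sides of 0, and no other correlation changed sign. The number of genes at 2-fold lay between 26 (at 3-fold) and 37, the mean pairwise rho between 0.442 and 0.523, and the number of genes with a read in at least 50% of cells between 31 and 41. The rho of the mitosis level with Klf1 moved to 0.429 in cells of at least 1000000 reads (36 cells) and to 0.767 as a Pearson correlation, and that with Cd34 to -0.446 in those deeper cells. In them the number of cells with early genes alone was 4. Cells with late genes alone numbered 2 after thinning to 50000 reads, 0 with marks at 1 read and 2 with marks at 30 CPM. With 3 of 7 late genes as the mark, cells with early genes alone numbered 3 and cells with late genes alone 3, and without Smc4 among the early genes cells with late genes alone numbered 3. The rho of the late genes with the G1/S genes moved to -0.254 with all 52 cells, -0.474 after thinning and -0.264 as a Pearson correlation, and that of condensin to 0.189 as a Pearson correlation. The cause of these moves was not tested. Results on the G1/S genes, the rho with Klf1 inside the Klf1-high Cd34-low cells, the comparison with the Klf1-low Cd34-positive cells alone those without single cells, with 3 late genes or without Smc4 were chosen after seeing the data. No paired analysis was possible because the labels give 1 group. With 1 sample and 14 Cd34-positive cells, of which 3 are Klf1-high, differences between the classes rest on few cells. The Cd34-positive cells also had a lower median depth, 1083630 reads against 2887968 in the Klf1-high Cd34-low cells.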
